A study of Arabidopsis thaliana with 6 samples.

Results

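The GDSL lipase and esterase family of *Arabidopsis thaliana* was followed in whole seedlings treated with the rhizobacterium *Priestia megaterium* YC4-R4. Members were the genes whose short description in the deposited table contains "GDSL", and 47 of its 19616 genes did. The descriptions stand one column to the left of their headers in that table. The column headed as the short description in fact holds curator summaries, of which 4 contain the word (GLIP1, GLIP3, GLIP5 and CDEF1), and these 4 are all among the 47. Another 12 genes carry the word only in their long description and are given as relatives by description, not as members.

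Wild type Col-0 seedlings were raised for 5 days on plates, moved to soil and inoculated 24 h later. The treated group received the bacteria in 0.45% NaCl, and the control group (mock) received the same carrier without bacteria. RNA from ground whole plants was sequenced 7 days after treatment (DAT), at 13 days after germination, with 3 libraries per group described as biological replicates. Total counts ran from 10804936 to 20040520 in mock and from 15292377 to 21904205 in treated libraries, so low genes were measured less precisely in mock 1 and mock 2. Levels are counts scaled to library size (CPM) after TMM normalization, which scales libraries for their composition. Because the samples are whole seedlings, fewer cells of a type and less RNA per cell cannot be told apart.

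GDSL enzymes are serine hydrolases that cleave or transfer ester bonds, and they are named after a short stretch of amino acids (Gly, Asp, Ser, Leu) near the amino end that carries the catalytic serine. Plants hold large families of them. Known roles include building or degrading the polyesters cutin and suberin, defense against pathogens (the GLIP proteins), and association with myrosinases, the enzymes that hydrolyse glucosinolates. For most members neither the table nor the RefSeq annotation gives a symbol or a role, and these are named by their locus only.

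The coding sequence around the name-giving motif is shown for 8 members on which the results below turn, with the 12 bases that encode Gly, Asp, Ser and the residue after them in capitals. The windows were read 5′ to 3′ on the coding strand from the RefSeq genome TAIR10.1, at chr3:17949601-17949654 (+) for AT3G48460, chr1:10055528-10055581 (-) for AT1G28610, chr1:20160595-20160648 (-) for GLL23, chr1:20156213-20156266 (-) for GLL22, chr5:18634266-18634319 (+) for AT5G45950, chr1:10372042-10372095 (+) for AT1G29660, chr1:10375930-10375983 (+) for AT1G29670 and chr4:485961-486014 (+) for AT4G01130.
AT3G48460: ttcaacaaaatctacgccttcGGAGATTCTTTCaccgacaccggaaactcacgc
AT1G28610: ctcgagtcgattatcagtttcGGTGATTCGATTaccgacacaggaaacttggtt
GLL23: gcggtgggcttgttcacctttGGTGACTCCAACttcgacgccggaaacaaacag
GLL22: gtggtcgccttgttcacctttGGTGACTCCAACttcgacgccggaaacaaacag
AT5G45950: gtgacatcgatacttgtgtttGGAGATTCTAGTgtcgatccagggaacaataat
AT1G29660: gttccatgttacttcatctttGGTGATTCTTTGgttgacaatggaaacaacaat
AT1G29670: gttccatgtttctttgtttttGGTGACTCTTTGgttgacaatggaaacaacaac
AT4G01130: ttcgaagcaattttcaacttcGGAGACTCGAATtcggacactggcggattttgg
Each window lies within 1 exon. Codons for Gly-Asp-Ser were found within the first 120 codons of 46 members, at a median codon of 40, and not in MVP1. The next residue was Leu in 14 members, Asn in 11 and Ile in 10. Members with Leu, Asn and Ile each included 4 of the genes that passed the test described next, so no single form of the motif held them.

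More members rose than fell in treated seedlings, by small amounts. With p-values from edgeR's quasi-likelihood test adjusted by the Benjamini-Hochberg method and a limit of 0.05, 13 members rose and 1 fell, which is 29.8% of the 47, whereas 9.63% of all 19615 tested genes passed in either direction (5.10% higher, 4.52% lower). With the additional demand of a fold change of at least 1.5, under which a gene is called, 1 member was called higher and 0 lower, against 3.27% of all tested genes (1.73% higher, 1.54% lower). At an unadjusted p under 0.05, 18 members were higher and 2 lower, against 2369 higher and 2202 lower of all 19615 tested genes. The median log2 fold change of the members was 0.19, with a middle range from 0.02 to 0.37, and that of all tested genes was -0.0049. The fold change was positive in 38 members (80.9%) and in 49.0% of all tested genes. The table holds only genes at 1 CPM or more in 2 or more libraries. Among the positive members, AT1G20120 (1.00, 0.494 and 0.749 CPM in mock) and AT3G27950 (0.820, 0.987 and 0.849 CPM in mock) met this only with treated libraries. Neither passed the adjusted p, but the count of positive members and the median include them.

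**Figure D1:**
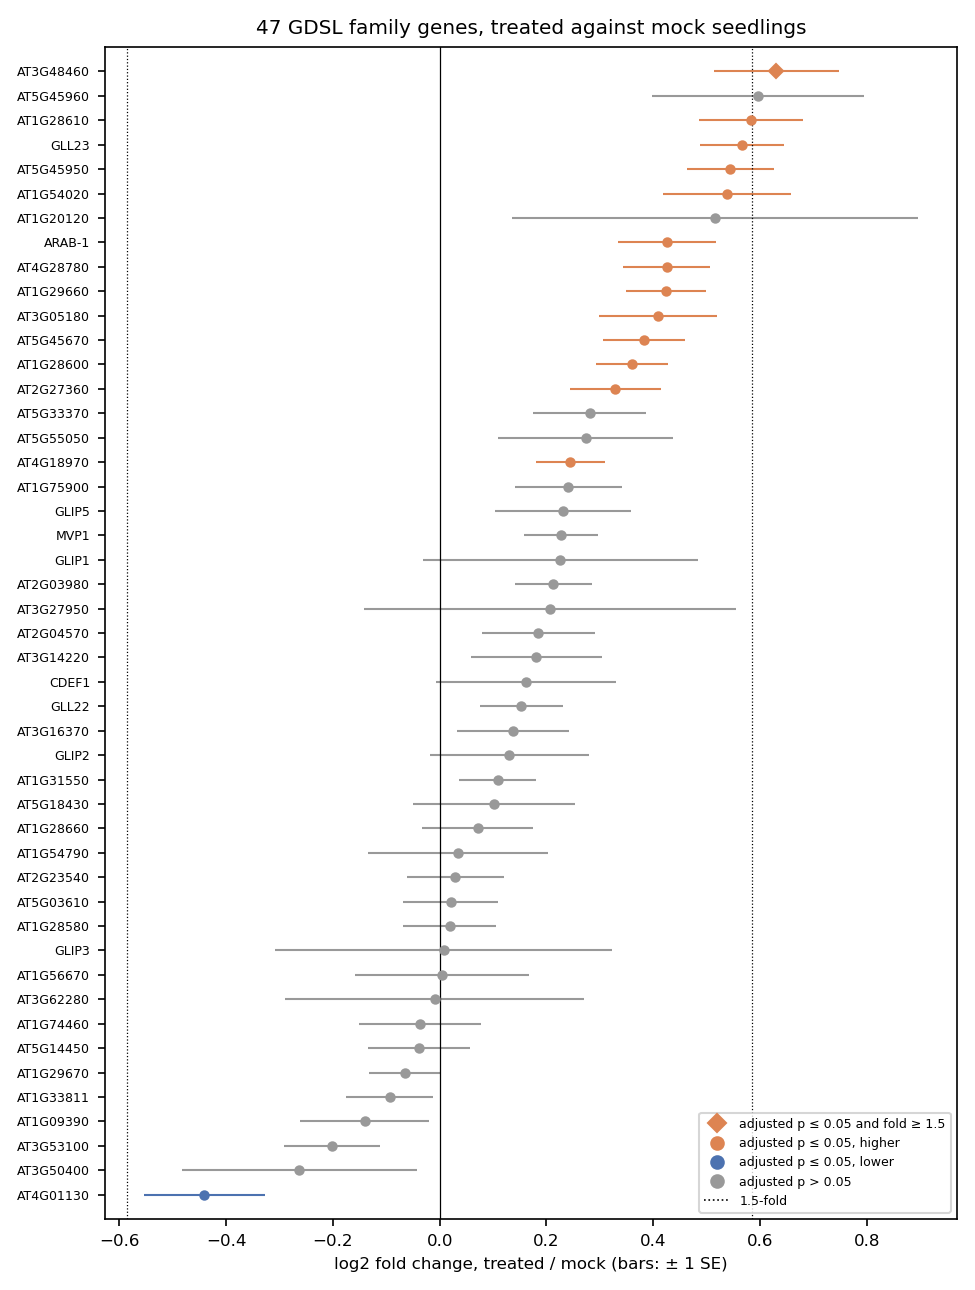
Log2 fold change, treated over mock, of the 47 members (points, with bars of 1 SE, n = 3 libraries per group), ordered by value, with dotted lines at a fold of 1.5. The values run from -0.44 in AT4G01130 to 0.63 in AT3G48460, and 38 lie above 0.

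The summed level of all members was 1382, 1506 and 1474 CPM in the mock libraries and 1729, 1623 and 1679 CPM in the treated libraries. All 3 treated sums thus lay above all 3 mock sums, with means of 1454 ± 64.5 and 1677 ± 52.7 CPM (SD, n = 3). In 17 members every treated library was above every mock library and in 2 every treated library was below, together 40.4% of the members, while 28.2% of all tested genes did not overlap between the groups (14.5% higher, 13.8% lower). The other 28 members overlapped.

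The level of the family was uneven. Per kb of exon, a scale that allows levels of different genes to be compared, members ran from 0.586 to 148 CPM, with a median of 10.6, and 25 members were above 10 and 4 below 1. The highest were AT3G16370 (148 CPM per kb), AT1G29660 (97.8), AT1G29670 (83.8), MVP1 (39.4) and AT1G28600 (37.4). The 3 members with most counts made up 37.0% of the summed CPM of the family. Of the 25 members above 10 CPM per kb, 10 passed the adjusted p, of the 18 members from 1 to 10 it was 4, and of the 4 members below 1 it was 0, whose smallest count in a library was 6.

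AT3G48460 was the member called higher. It spans chr3:17949416-17951250 on the plus strand (TAIR10.1), and its level was 10.7, 10.9 and 13.1 CPM in mock and 18.4, 15.8 and 19.9 CPM in treated libraries. The groups did not overlap, although the highest mock library and the lowest treated library were close. The log2 fold change was 0.63 (SE 0.118, edgeR adjusted p = 0.00540). Without mock 1 it was 0.58 and without treated 3 it was 0.56, both under the fold limit, while the adjusted p stayed under 0.05 in each of the 6 fits without 1 library. AT1G28610 lay just outside the fold limit and is described with its neighbours below.

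GLL23 (AT1G54010), a GDSL protein found with the myrosinase PYK10 of ER bodies, gave the smallest adjusted p among the members. Its level was 37.2, 44.6 and 40.8 CPM in mock and 57.7, 61.1 and 62.8 CPM in treated libraries. Every treated library was well above the highest mock library, with a log2 fold change of 0.57 (SE 0.0789, edgeR adjusted p = 0.000833). AT5G45950 moved by a like amount, from 40.5, 39.8 and 37.8 CPM in mock to 58.2, 62.4 and 51.5 CPM in treated libraries. The log2 fold change was 0.54 (SE 0.0819, edgeR adjusted p = 0.00137), and the treated libraries spread more widely (SD 5.49 CPM) than the mock libraries (SD 1.42 CPM).

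AT1G29660 was the most abundant member that rose. Its level was 142, 145 and 152 CPM in mock and 183, 213 and 194 CPM in treated libraries, without overlap. The log2 fold change was 0.42 (SE 0.0752, edgeR adjusted p = 0.00393). AT3G16370, the most abundant member of all, was at 240, 289 and 277 CPM in mock and 333, 253 and 301 CPM in treated libraries. Treated 2 lay within the mock range there, and the log2 fold change of 0.14 did not pass (edgeR adjusted p = 0.482).

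AT4G28780 rose from 32.7, 37.9 and 39.6 CPM in mock to 51.2, 46.9 and 50.4 CPM in treated libraries, at a log2 fold change of 0.43 (edgeR adjusted p = 0.00658). AT5G45670 rose from 32.4, 28.1 and 29.4 CPM to 38.6, 40.8 and 37.7 CPM, at 0.38 (edgeR adjusted p = 0.00852). In both genes the treated libraries were all above the mock libraries. The smaller rises were those of AT3G05180 (log2 fold change 0.41, adjusted p = 0.0380), AT2G27360 (0.33, 0.0311) and AT4G18970 (0.24, 0.0352), in edgeR.

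AT4G01130 was the 1 member that fell. Its level was 14.6, 14.1 and 15.2 CPM in mock and 11.4, 9.06 and 11.8 CPM in treated libraries. The treated libraries were all lower, with a log2 fold change of -0.44 (SE 0.114, edgeR adjusted p = 0.0304). The next largest decrease that separated the groups was -0.20 in AT3G53100, which did not pass (edgeR adjusted p = 0.202).

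**Figure D2:**
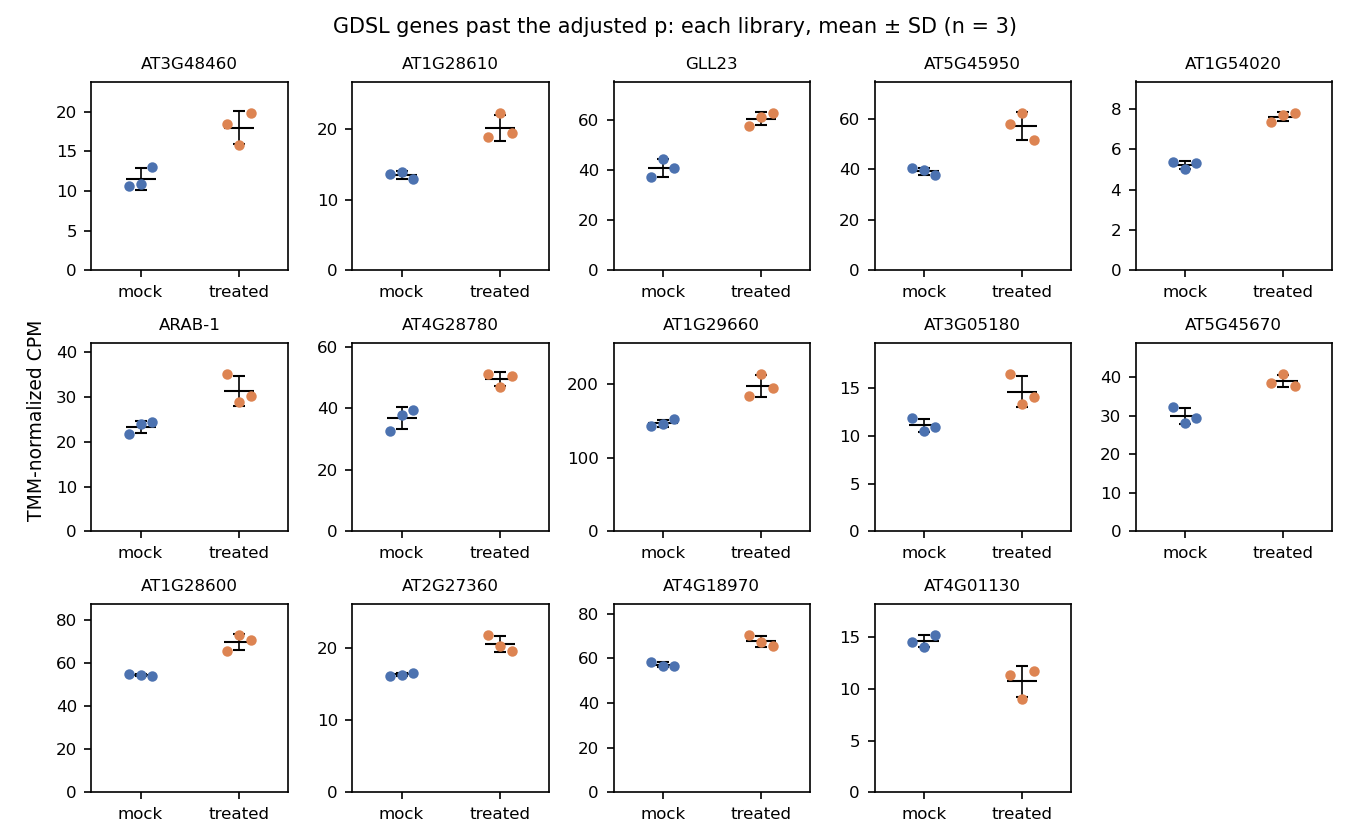
TMM-normalized CPM (y axis, from 0) in each mock and treated library of the 14 members past the adjusted p (points), with mean and SD (n = 3). In each panel the 3 treated libraries lie on one side of the 3 mock libraries, above in 13 panels and below for AT4G01130.

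How firm these rises are differed between members. In all 14 other settings of the analysis (8 other normalizations, filters, tests and a block, and 6 fits without 1 library), 7 of the 14 members stayed past the adjusted p, namely GLL23, AT5G45950, AT1G28610, AT1G29660, AT3G48460, AT1G28600 and AT4G28780. The direction of the 14 did not turn in any of them. Without mock 2 or without mock 3, only 8 members passed, all of them among the 14. AT5G45670 was at an adjusted p of 0.0512 without mock 2 and 0.0538 without mock 3, and AT1G54020 at 0.0624 and 0.0663. ARAB-1 was at 0.0611 without treated 1. AT4G01130 was past 0.05 only in the full data and without treated 3 among these fits, reaching 0.141 without mock 3. AT2G27360 reached 0.130 and AT4G18970 0.133, both without treated 1, and AT3G05180 reached 0.159 there too.

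Of 7 GLIP genes listed, some of which are known in defense, 4 were in the table (GLIP1, GLIP2, GLIP3 and GLIP5). Of the 4, 0 passed the test, which 9.63% of all tested genes did, so 4 genes are too few to tell these shares apart. GLIP1 (AT5G40990), a secreted lipase known for resistance to a necrotrophic fungus, was at 1.37, 1.32 and 1.40 CPM in mock and 1.72, 1.09 and 1.89 CPM in treated libraries. The groups overlapped, with a log2 fold change of 0.23 (SE 0.258, edgeR adjusted p = 0.662). The log2 fold change was 0.13 in GLIP2 (SE 0.149), 0.01 in GLIP3 (SE 0.316) and 0.23 in GLIP5 (SE 0.128), and each overlapped between groups. GLIP1 and GLIP3 had as few as 15 and 13 counts in a library.

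CDEF1 (AT4G30140), a cutinase that degrades the cuticle polyester, was at 6.84, 8.89 and 9.44 CPM in mock and 9.07, 7.58 and 11.7 CPM in treated libraries. It overlapped between groups, at a log2 fold change of 0.16 (SE 0.168, edgeR adjusted p = 0.626). From general knowledge, 7 GDSL genes of the table are placed with the formation or breakdown of cutin or suberin, CDEF1 included and 5 of them members. Their log2 fold changes ran from -0.04 to 0.28. Of the 7, 0 passed the adjusted p, which 9.63% of all tested genes did. LTL1, also among the 7 but a relative outside the 47, is known for lithium tolerance and was at 48.5, 63.5 and 57.6 CPM in mock and 67.5, 65.3 and 70.3 CPM in treated libraries. Its lowest treated library was above its highest mock library by a narrow margin, and its log2 fold change of 0.26 did not pass (edgeR adjusted p = 0.103).

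From general knowledge, 6 GDSL genes of the table were listed as tied to myrosinases or ER bodies, 5 of them members. Of the 6, 3 passed the adjusted p (GLL23, AT1G54020 and ESM1), all higher, against 9.63% of all tested genes. MVP1 (AT1G54030), which is required for normal ER and vacuole organisation, was at 55.2, 60.9 and 60.3 CPM in mock and 70.4, 65.7 and 70.6 CPM in treated libraries. The groups did not overlap and MVP1 was the member nearest to the threshold from outside, at a log2 fold change of 0.23 (SE 0.0695, edgeR adjusted p = 0.0627). GLL22 (AT1G54000) was at 51.3, 52.4 and 53.5 CPM in mock and 63.5, 52.9 and 58.2 CPM in treated libraries, with treated 2 inside the mock range and a log2 fold change of 0.15 (SE 0.0775, edgeR adjusted p = 0.265). AT3G14220 was at 32.1, 45.5 and 40.8 CPM in mock and 46.8, 38.1 and 49.3 CPM in treated libraries. Its groups overlapped, at a log2 fold change of 0.18 (SE 0.123, edgeR adjusted p = 0.423). AT1G54020 was at 5.38, 5.02 and 5.29 CPM in mock and 7.35, 7.71 and 7.79 CPM in treated libraries, at a log2 fold change of 0.54 (edgeR adjusted p = 0.0146). ESM1, a relative outside the 47 that directs glucosinolate breakdown away from nitriles, was at 309, 379 and 363 CPM in mock and 442, 442 and 473 CPM in treated libraries. It rose by 0.37 on the log2 scale (SE 0.0864, edgeR adjusted p = 0.0188), but the adjusted p was 0.0675 without mock 3, 0.0542 without treated 1 and 0.0641 without treated 3.

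Of the 12 relatives, 3 passed the adjusted p, all higher, and 1 was called, against 9.63% and 3.27% of all tested genes. RXW8 was the called relative, at 17.5, 16.5 and 14.7 CPM in mock and 30.9, 31.7 and 31.9 CPM in treated libraries. The separation was wide and the log2 fold change was 0.97 (SE 0.0853, edgeR adjusted p = 4.21e-05). Its place in the family is doubtful, since its longest coding sequence has 746 codons (348 to 431 in the members), holds no Gly-Asp-Ser codons among the first 120, and its transcript is closest to that of AT1G10090, which is not among the 59 genes described as GDSL. Its locus also overlaps AT1G58525 on the same strand in the RefSeq annotation, so its count is uncertain. Among the relatives, AT3G11210 and AT2G38180 lack the Gly-Asp-Ser codons there too. FXG1, an alpha-fucosidase, was at a log2 fold change of 0.04 (edgeR adjusted p = 0.845).

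Many family members are neighbours on the chromosome. With the relatives included and a gap of at most 20 kb between genes of the table, 18 members lay in 6 runs. Of these, 7 passed the adjusted p, as did 7 of the 29 members outside runs, and the median log2 fold changes were 0.24 and 0.14.

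**Figure D3:**
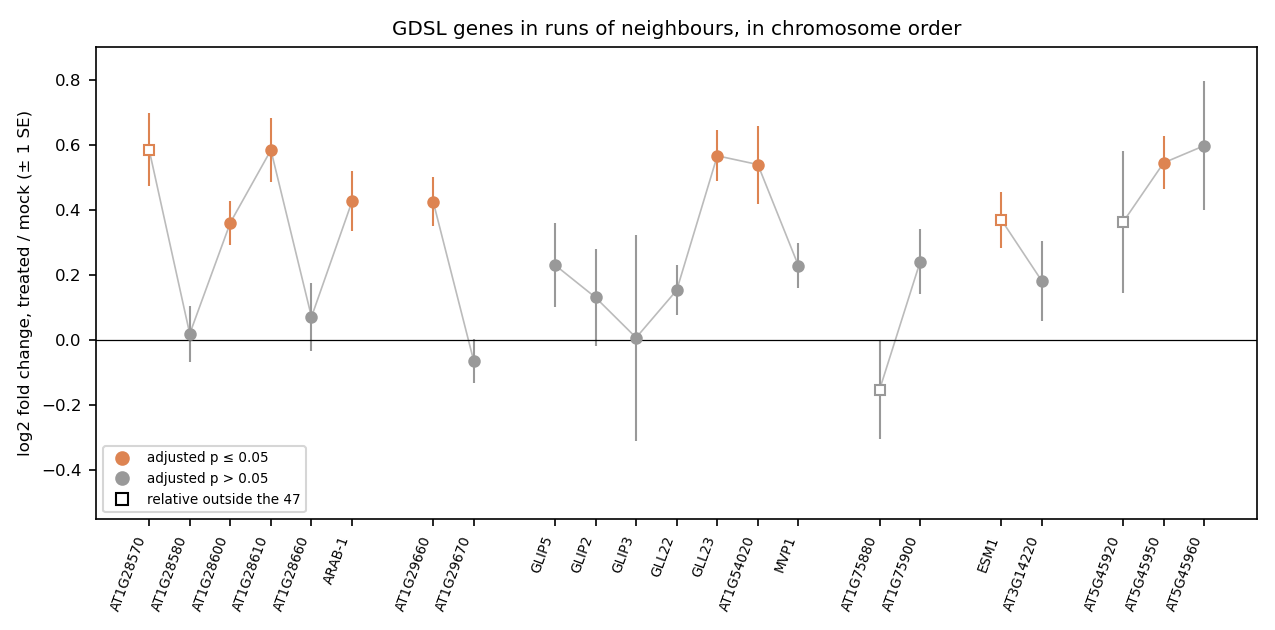
Log2 fold change, treated over mock (y axis, with bars of 1 SE), of the genes in the 6 runs of neighbours in chromosome order (x axis), with lines joining genes of a run and open squares for relatives outside the 47. AT1G28570 and AT1G28580, which are adjacent, were at 0.58 and 0.02.

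The run from AT1G28570 to ARAB-1 on chromosome 1 holds 6 genes on the minus strand. AT1G28610 (chr1:10053443-10055881) was at 13.6, 14.0 and 12.9 CPM in mock and 18.8, 22.3 and 19.5 CPM in treated libraries. Its groups were far apart, and its log2 fold change of 0.58 (SE 0.0972, edgeR adjusted p = 0.00269) lay just under the fold limit. AT1G28600 rose from 54.6, 54.3 and 53.9 CPM to 65.5, 72.9 and 70.7 CPM (log2 fold change 0.36, edgeR adjusted p = 0.00553). ARAB-1 (AT1G28670) rose from 21.8, 23.9 and 24.3 CPM to 35.1, 28.8 and 30.2 CPM (0.43, edgeR adjusted p = 0.0127), and the relative AT1G28570 from 6.56, 7.49 and 7.19 CPM to 11.4, 10.3 and 10.2 CPM (0.58, edgeR adjusted p = 0.00632). Between them, AT1G28580 (0.02) and AT1G28660 (0.07) overlapped between groups.

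AT1G29660 and AT1G29670 are 1594 bases apart on the same strand. AT1G29670 was at 122, 135 and 126 CPM in mock and 122, 121 and 124 CPM in treated libraries, at a log2 fold change of -0.07 (SE 0.0668, edgeR adjusted p = 0.622). The ratio of their counts within a library, which normalization cannot move, was 1.17, 1.08 and 1.203 in mock and 1.51, 1.76 and 1.57 in treated libraries. The ratio was thus higher in each treated library than in each mock library. AT1G29670 overlaps AT1G29680 on the other strand, so its count, and with it this ratio, is uncertain.

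For GLL22 over GLL23 the ratio was 1.38, 1.18 and 1.31 in mock and 1.101, 0.866 and 0.927 in treated libraries, so that GLL22 had the more counts in all mock libraries and GLL23 in 2 of the 3 treated libraries. For AT1G28610 over AT1G28660, which lie 15728 bases apart, it was 1.16, 1.097 and 1.22 in mock and 1.53, 1.91 and 1.57 in treated libraries. For AT1G28660 over ARAB-1 it was 0.536, 0.534 and 0.434 in mock and 0.351, 0.406 and 0.411 in treated libraries. Each of these ratios separated the groups. The exact two-sided permutation test gave p = 0.1 for each of the 4 ratios, the smallest that 3 against 3 libraries allow, or 0.178 after adjustment over the 16 pairs of neighbours computed, some of which share a gene, so that none passed. The 4 pairs were picked after their values were seen.

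**Figure D4:**
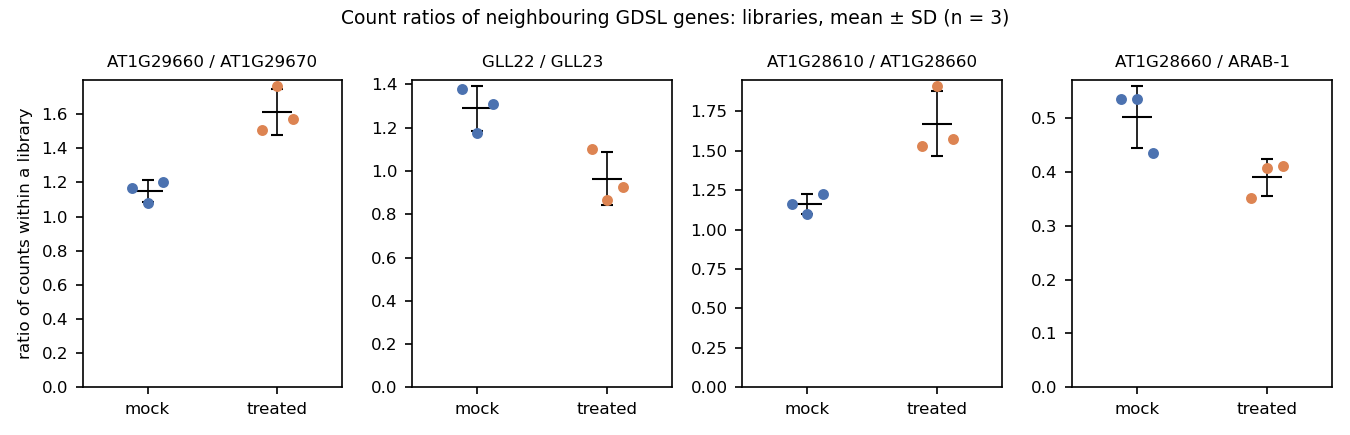
Ratio of the counts of 2 genes within a library (y axis, from 0) in mock and treated libraries (points), with mean and SD (n = 3). The 4 pairs are successive family genes of a run, not always adjacent on the chromosome. The ratio of AT1G29660 to AT1G29670 was 1.15 ± 0.0637 in mock and 1.61 ± 0.135 in treated libraries.

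Near-identical copies bear on such ratios, because reads that match 2 genes may be lost or shared. GLL22 and GLL23 align at 89.2% identity with a longest identical stretch of 85 bases, and AT1G28660 and ARAB-1 at 90.1% with 91 bases. These 4 are the members that share at least 50 identical bases with another transcript, and 0 share 100. Their separate values are uncertain to that extent. In the windows printed above, the capitals of GLL22 and GLL23 are the same.

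A further 12 members overlap another annotated locus, and the strand setting of the counting is not stated in the sources used here. Without strand, their reads cannot be told apart from those of their partners. This concerns AT4G18970 and AT3G05180 among the members that passed, and AT3G16370, AT1G29670, AT3G14220, CDEF1 and AT3G53100 among the others given with values.

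The sequence before the annotated start is shown for 3 members, to set AT1G29660 beside the neighbour that did not pass and GLL23 as the member with the smallest adjusted p. The 250 bases of TAIR10.1 end 1 base before the start, at chr1:10371425-10371674 (+), chr1:10375349-10375598 (+) and chr1:20160865-20161114 (-), with matches to 4 searched motifs in capitals.
AT1G29660: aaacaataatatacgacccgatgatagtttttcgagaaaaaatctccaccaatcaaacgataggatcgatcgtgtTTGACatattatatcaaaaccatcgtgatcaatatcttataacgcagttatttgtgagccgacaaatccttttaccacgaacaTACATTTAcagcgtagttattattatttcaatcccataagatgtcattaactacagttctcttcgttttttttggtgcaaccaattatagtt
AT1G29670: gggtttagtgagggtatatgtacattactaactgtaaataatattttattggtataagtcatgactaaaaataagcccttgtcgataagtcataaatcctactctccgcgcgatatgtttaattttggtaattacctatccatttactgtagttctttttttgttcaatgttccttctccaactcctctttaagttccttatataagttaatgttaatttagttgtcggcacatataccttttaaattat
GLL23: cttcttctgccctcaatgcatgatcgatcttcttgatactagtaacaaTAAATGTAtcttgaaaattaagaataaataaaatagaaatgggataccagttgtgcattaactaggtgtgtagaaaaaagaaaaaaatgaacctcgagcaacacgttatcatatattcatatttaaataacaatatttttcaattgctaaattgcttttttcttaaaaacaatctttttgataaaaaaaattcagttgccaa
The motifs, searched on both strands, were the L1 box (TAAATGCA or TAAATGTA), known from genes of the shoot epidermis, the W-box core TTGAC, the G-box CACGTG and the evening element AAAATATCT. The windows of AT1G29660 and GLL23 hold an L1 box, that of AT1G29660 also a W-box core, and that of AT1G29670 none of the 4. The matches do not overlap each other. The L1 box was in the windows of 5 of the 47 members (10.6%) and of 4.51% of all 19175 genes of the table with a window. Of the 5 members with it 2 passed the adjusted p, and of the 42 without it 12 did. The W-box core was in 48.9% of the members and 45.1% of all genes, the G-box in 2.13% and 7.28%, and the evening element in 6.38% and 2.52%. The window of AT3G48460 held 0 matches of the 4 motifs.

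Genes of related pathways, from lists written from general knowledge, were set beside the family. Of 37 genes of cutin and suberin formation, 32 were in the table, of which 0 were called and 3 passed the adjusted p, all higher, with a median log2 fold change of 0.20. They were HTH (0.45, adjusted p = 0.0208), which acts in cutin monomer synthesis, ABCG11 (0.33, 0.0256), a transporter of cuticle lipids, and LACS2 (0.31, 0.0128), a long-chain acyl-CoA synthetase, in edgeR. The share past the adjusted p was 9.38% in this list, close to the 9.63% of all tested genes, of which 3.27% were called. Of 20 genes of ER bodies and the myrosinase system, 19 were in the table, of which 1 was called and 3 passed, all higher, with a median of 0.17. They were NSP5 (0.64, adjusted p = 0.000287), a nitrile specifier protein, BGLU18 (0.30, 0.0217), a beta-glucosidase, and PBP1 (0.25, 0.0442), which binds PYK10. The share past the adjusted p was 15.8% in this second list.

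Of the markers of cell types, those of epidermis and root hair rose most often. Of 7 epidermis genes, 0 were called and 4 passed the adjusted p, all higher, with a median of 0.29 over the 7. The 4 were CER1 (0.49) and CER3 (0.33) of wax synthesis, the transcription factor PDF2 (0.29) and KCS10 (0.25). The summed level of the 7 was from 833 to 894 CPM in mock and from 1008 to 1013 CPM in treated libraries. Of 16 root hair genes, 15 were in the table (RSL4 was not), and 11 were called higher, with a median of 0.99. The summed level of the 15 was from 31.8 to 41.0 CPM in mock and from 66.0 to 78.5 CPM in treated libraries. The table holds only genes that reach 1 CPM in 2 or more libraries. RHS12 and RHS15 were under 1 CPM in every mock library, so they entered it only through the treated group. EXPA18 (0.365, 1.48 and 0.699 CPM in mock) and RHS10 (0.820, 1.15 and 0.849 CPM in mock) also needed treated libraries to reach it. The number called and the median are therefore partly set by that filter. Of 9 endodermis genes, 7 were in the table and 0 passed, with a median of -0.07. Their sums were from 45.0 to 48.2 CPM in mock and from 42.4 to 44.9 CPM in treated libraries. Of 11 photosynthesis genes, 2 passed (18.2%), both higher, with a median of -0.12. Of all tested genes, 9.63% passed the adjusted p and 1.73% were called higher.

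Of the 10 genes named from the cutin, ER body and epidermis lists, NSP5 and CER1 stayed past the adjusted p in every fit without 1 library. CER3 was at 0.0502 without mock 2, and PDF2 at 0.0554 without mock 2 and 0.0657 without mock 3. The other 6 did not pass in at least 3 of the 6 fits, up to 0.148 for PBP1 without treated 1 in edgeR.

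Of 14 genes listed for a rapid response to handling, among them CBF1, WRKY33, WRKY40 and ZAT12, 12 were called lower, against 1.54% of all tested genes. Their median was -0.97, with sums from 1557 to 1756 CPM in mock and from 926 to 1040 CPM in treated libraries. The list takes its name from general knowledge and not from the labels, and the cause of the fall was not tested. None of the 7 pollen and flower genes or the 5 seed genes was in the table, where each gene reaches 1 CPM in 2 or more libraries. The part of the epidermis, root hair and handling genes in the values of the GDSL members was not tested.

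**Figure D5:**
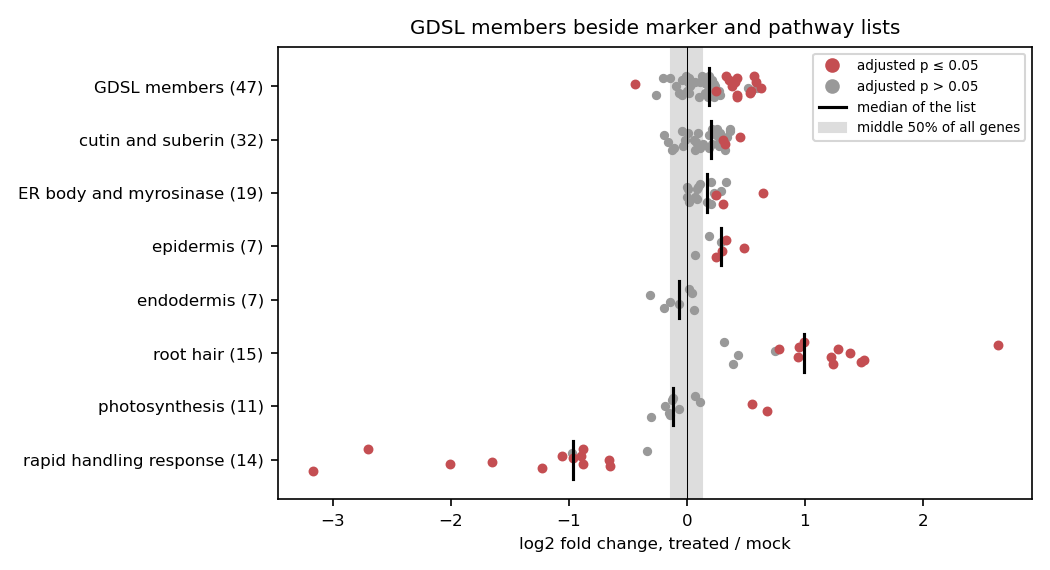
Log2 fold change, treated over mock (x axis), of the genes of each list (points, red where the adjusted p was at most 0.05), with black bars at the medians and a grey band for the middle range of all tested genes. The median was 0.19 for the GDSL members, 0.29 for epidermis, 0.99 for root hair and -0.97 for handling genes.

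The remaining 33 members did not pass the adjusted p. Their log2 fold changes ran from -0.26 to 0.60, with a median of 0.11, and 25 were positive and 8 negative. The highest, AT5G45960, was at 2.097, 1.64 and 1.75 CPM in mock and 3.04, 2.63 and 2.53 CPM in treated libraries. Its groups did not overlap, but its SE was 0.198 and its adjusted p in edgeR 0.0857. It ends 208 bases from AT5G45950, which rose by 0.54, and the genes lie tail to tail.

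AT2G03980 and AT1G75900 also separated the groups without passing. AT2G03980 was at 34.1, 37.3 and 34.1 CPM in mock and 42.5, 39.6 and 39.9 CPM in treated libraries, at a log2 fold change of 0.21 (SE 0.0725, edgeR adjusted p = 0.0929). AT1G75900 was at 16.04, 18.9 and 18.8 CPM in mock and 19.1, 22.5 and 22.3 CPM in treated libraries, at 0.24 (SE 0.100, edgeR adjusted p = 0.169). In both, the highest mock library lay close to the lowest treated library.

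Several abundant members overlapped between the groups. AT1G28580 was at 56.5, 59.9 and 58.2 CPM in mock and 66.2, 52.0 and 58.4 CPM in treated libraries, at a log2 fold change of 0.02 (SE 0.0869). AT1G31550 was at 42.1, 42.0 and 42.2 CPM in mock and 47.8, 41.9 and 46.3 CPM in treated libraries, at a log2 fold change of 0.11 (SE 0.0721). AT1G33811 was at 36.0, 43.5 and 42.5 CPM in mock and 38.3, 38.5 and 37.8 CPM in treated libraries, at -0.09 (SE 0.0807). AT5G03610 was at 34.5, 33.0 and 30.2 CPM in mock and 31.1, 36.7 and 31.1 CPM in treated libraries, at 0.02 (SE 0.0888).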

How the data were processed

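RNA-Seq libraries of mock and treated whole seedlings were analysed (3 per group). The deposited counts per gene are the authors' HTSeq-count output, from reads trimmed with Trimmomatic 0.36 and aligned by HISAT2 2.1.0 to TAIR10. The labels name more than one library kit, and no source used here states the strand setting. The deposited CPM values are the authors' scaling of these counts and were not used further. The authors also deposited log2 fold changes, log2 CPM, p-values and FDR of their own edgeR comparison, which were not used. The number of columns without a sample was 0.

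Counts were tested in R 4.3.3 with edgeR 4.0.16 (filterByExpr, 19615 genes kept, TMM, quasi-likelihood test, no covariate), with Benjamini-Hochberg adjustment over all genes. The SE is the log2 fold change divided by the root of F. DESeq2 1.42.0 and limma 3.58.1 served as alternatives. The labels do not say which plants or pots a library pools, so p-values measure the spread between these libraries, which may be partly technical. Sequences, positions and symbols came from the RefSeq annotation of TAIR10.1, and transcripts were aligned with BLAST+ 2.17.0. Python 3.11.15 with pandas 2.3.3 and matplotlib 3.10.9 served for tables and plots. On simulated data with 19615 genes for the treated against mock comparison, the adjusted p recovered 38 of 50 genes made to change 1.5-fold and 49 of 50 made to change 2-fold.

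The members and lists were chosen with earlier results of these data known. Named are the called members, those past the adjusted p, those with a known role, the 5 highest per kb, those next to a limit, and up to 4 genes of other lists. Neighbour pairs, AT3G53100, AT2G03980, AT1G75900, AT1G28580, AT1G31550, AT1G33811 and AT5G03610 were named after their values were seen.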

Additional observations from a re-analysis of the deposited data

How the results depend on the processing

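The median log2 fold change of the members stayed between 0.14 and 0.24 and positive in all 14 other settings, and 12 of 47 members changed sign in at least 1 of them, none of those past the adjusted p. The count of called members was 1 under every other normalization, filter and test, and from 1 to 3 without 1 library. Without mock 1 the called member was AT1G28610 and without treated 3 they were AT1G28610 and AT5G45950, in place of AT3G48460. Without mock 2 or treated 1, AT1G28610 and GLL23 joined AT3G48460. With no fold limit 13 members were called higher and 1 lower, and with a fold of at least 2 the count was 0. Over all genes, the calls were 340 higher and 302 lower, 1001 and 887 with no fold limit, and 98 and 90 with a fold of at least 2.

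Members past the adjusted p and higher numbered from 8 to 14 without 1 library and 10 in DESeq2, against 13. Members past it and lower numbered from 0 to 1 without 1 library. Libraries with the same number deviated from their group means with correlations of -0.159, -0.248 and 0.126. For libraries with unlike numbers the correlations ran from -0.292 to 0.379. No pairing by number was seen, but 3 libraries per group are too few to exclude one. With the replicate block, 9 members passed higher and 0 lower, 1 was called higher, and the calls over all genes were 282 higher and 265 lower. MVP1 passed in edgeR's exact test (adjusted p = 0.0453) and without treated 2 (0.0428). The causes of these changes were not tested. Members below 1 CPM per kb had as few as 6 counts in a library.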
